A study of Mus musculus with 18 samples.

Results

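Ribosome biogenesis factors are the proteins that transcribe, modify, cut and fold ribosomal RNA and load it with ribosomal proteins. A list of 39 such mouse genes was followed by symbol across the series, and 38 of them were among the 24485 genes listed for every library, whereas Noc2l was not analysed here. The members were chosen by name and function, but with earlier results of these data known. RNA was sequenced from bone marrow-derived macrophages (BMDMs) of Il10-/- mice on the C57BL/6J background, which were 12 weeks old according to the methods of the study. All 6 groups carried the Il10 deletion, so no group had an intact Il10 gene. Marrow from 3 mice was cultured for 6 days with L929 conditioned medium, and each group held 1 library per mouse. The groups were unstimulated cells given neither agent, cells given (+)-JQ1 at 500 nM, cells given IL-10 at 10 ng/mL, and the same 3 conditions with lipopolysaccharide (LPS) at 50 ng/mL. (+)-JQ1, called JQ1 from here on, blocks the bromodomains with which BET proteins bind acetylated histones. IL-10 is the anti-inflammatory cytokine these cells cannot make, and LPS, from the outer membrane of Gram-negative bacteria, is sensed through the receptor TLR4. Pretreatment lasted 12 hours and LPS or buffer was then present for 4 hours. Cells without JQ1 or IL-10 are labelled untreated, whereas the study's methods mention vehicle before LPS, so JQ1 and its solvent cannot be told apart where controls received no vehicle. The labels describe matched cultures of the same mice, so the groups shared animals.

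In the nucleolus, RNA polymerase I transcribes a long ribosomal RNA precursor. Box C/D and box H/ACA small nucleolar ribonucleoproteins (snoRNPs) methylate it and convert uridines to pseudouridines. The small subunit processome then cuts and folds the part that becomes the small ribosomal subunit, and a separate set of factors matures the large subunit. The pathway is known as a large consumer of cellular energy, it is driven by growth signals, and many of its genes are known targets of the transcription factor Myc. The 38 members held 4 genes of RNA polymerase I transcription, 4 box C/D proteins, 5 box H/ACA proteins, 11 small subunit factors, 10 large subunit factors and 4 abundant nucleolar proteins.

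Between 6781952 and 28289498 expected counts were assigned per library, and the Unstimulated replicate 2 library was the shallowest. All 38 members had at least 10 counts in each library, from 30 for Gar1 to 9032 for Ncl, so no member was lost to low depth. Il10 itself still had 16 to 196 expected counts per library, and whether these came from outside the deleted part was not examined. The 8 macrophage markers summed to between 14316 and 29066 TPM, an abundance corrected for gene length, whereas 6 T cell markers stayed between 2.16 and 8.88 TPM, 5 B cell markers between 0.10 and 5.34 TPM and 6 neutrophil markers between 0.74 and 13.3 TPM, with Ly6g at 0 in all libraries. Dendritic cell markers reached 2.85 TPM, fibroblast markers 10.3 TPM and mast cell markers 0.45 TPM. These are bulk samples, so fewer expressing cells and less RNA per cell cannot be told apart.

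The members differed widely in abundance. On the TPM scale, the mean over all 18 libraries was highest for Npm1, a nucleolar histone and ribosomal protein chaperone, at 205 TPM. Ncl, which encodes the nucleolar RNA-binding protein nucleolin, followed at 63.5 TPM, the box H/ACA core protein Nop10 at 58.4 TPM, the nucleolar Myb-binding protein Mybbp1a at 56.8 TPM and Fbl, which encodes the box C/D methyltransferase fibrillarin, at 49.3 TPM. These last 4 neighbours lay close to each other relative to their range over libraries, which for Nop10 ran from 32.7 to 93.8 TPM. The lowest means were those of Polr1b, a core subunit of RNA polymerase I, at 3.60 TPM, and of Dkc1, the pseudouridine synthase of box H/ACA particles, at 3.83 TPM. The summed level of the 38 members was 1018 ± 56.3 TPM (SD, n = 3) in unstimulated cells, 1012 ± 30.3 TPM with JQ1, 1009 ± 58.0 TPM with IL-10, 925 ± 56.8 TPM with LPS, 895 ± 57.1 TPM with LPS and IL-10, and 1159 ± 47.8 TPM with LPS and JQ1. The 3 libraries of LPS with JQ1 lay above all other libraries, at 1120 to 1212 TPM.

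To determine how LPS stimulation changed the pathway, LPS-treated and unstimulated cells were compared. Changes within a gene are given in normalised counts, which are expected counts divided by the library's median-of-ratios size factor, and a gene was called at an adjusted p under 0.05 in the DESeq2 Wald test over all genes. Of the 38 members, 22 were higher with LPS and 5 were lower, which is 57.9% and 13.2% of them. Among all 14965 genes tested, 31.6% were higher and 32.9% were lower, or 64.5% in either direction. The median log2 fold change of the members was 0.34, against -0.07 for the 12251 genes that passed the count filter. Every median of all genes given here was taken over that filtered set, and 29 members lay above it. The direction of the smaller changes depended on the scaling. Under total-count scaling the median of all genes moved to -1.0 and the members' counts to 6 higher and 26 lower, and under log2(TPM + 1) the median moved to -0.63. Of the 22 higher members, 13 had a negative sign in at least 1 scaling. Higher calls were 49.0% of all calls over all genes and 20.1% under total-count scaling.  Relative to the median of all genes, the members' median was higher by 0.41 under median-of-ratios, TMM and total-count scaling, by 0.22 on log2(TPM + 1) and by 0.38 on log2(TPM + 0.1). The count scalings shift all genes by nearly the same amount, so their equal differences follow from that and are no test.

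**Figure D1:**
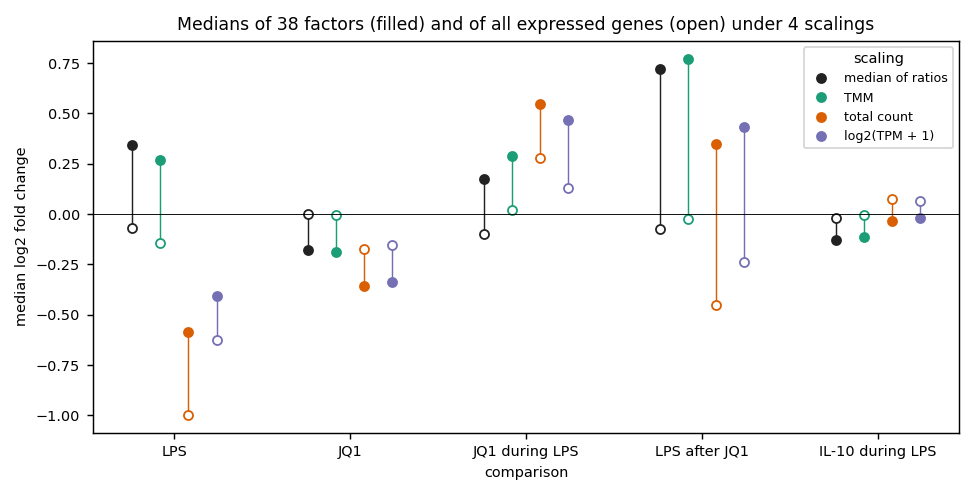
Median log2 fold change (vertical axis) of the 38 factors (filled circles) and of all genes that passed the count filter (open circles) in 5 comparisons, for 4 ways of scaling the libraries (colours). For LPS the filled circle moves below 0 with total count or TPM but stays above the open one, which is below 0 in each scaling. For JQ1 alone and for IL-10 during LPS the filled circle stays below the open one. Between the count scalings both circles shift by nearly the same amount, so their distance is nearly fixed.

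The largest rises, those of Wdr43 and Noc4l, were in small subunit factors, but these factors as a whole did not rise most. The median log2 fold change was 0.25 for small subunit factors, 0.74 for box C/D, 0.52 for nucleolar and 0.45 for box H/ACA proteins. It was 0.16 for large subunit factors and -0.19 for RNA polymerase I genes. Wdr43, a protein of the complex that starts small subunit processome assembly on the nascent precursor (chr17:71965555-72008371, plus strand, build mm9), had normalised counts of 407, 375 and 365 in the unstimulated libraries. In the LPS libraries its counts were 2692, 2807 and 2769.8. The groups did not overlap, and Wdr43 rose 7.19-fold (log2 fold change 2.85, SE 0.076, adjusted p = 2.25e-301). Noc4l, a nucleolar factor of small subunit maturation (chr5:111077437-111082436, minus strand, mm9), had counts of 177, 154 and 163 without LPS and 812, 775 and 756 with it. It rose 4.71-fold, with the same direction in 3 of 3 mice (log2 fold change 2.24, SE 0.12, adjusted p = 8.59e-73). Ltv1, which acts late in small subunit maturation, went from 177 ± 4.93 to 609.5 ± 32.5 normalised counts (SD, n = 3). In all, 6 of 11 small subunit factors were called higher and the other 5 were not called. Wdr43, Noc4l and Ltv1 were called higher under all 4 scalings, whereas Utp20, Tsr1 and Nop14 had a negative sign under total-count or TPM scaling.

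Large subunit factors moved in both directions. Rrs1, which helps to incorporate the small ribosomal RNA of the large subunit (chr1:9535489-9537535, plus strand, mm9), had counts of 285, 254 and 251 in unstimulated cells and 1217, 1289 and 1150.4 with LPS. It rose 4.61-fold (log2 fold change 2.21, SE 0.11, adjusted p = 7.37e-88), also under all 4 scalings. Wdr12 (chr1:60133712-60155489, minus strand, mm9) had counts of 159.7, 139 and 142 without LPS and 52.3, 60.0 and 60.2 with LPS. It was 2.56-fold lower with LPS, with the same direction in 3 of 3 mice (log2 fold change -1.35, SE 0.18, adjusted p = 1.11e-13). Wdr12 forms the PeBoW complex with Pes1 and Bop1, which is required to process the large subunit precursor. Bop1 was at 411 ± 31.8 normalised counts without LPS and 627 ± 77.7 with LPS, a call that changed sign under total-count and TPM scaling, and Pes1 was at 942 ± 36.1 and 879 ± 55.8 and was not called, but was called lower under TMM, total-count and TPM scaling. Large subunit factors as a whole went from 5 higher and 3 lower to 1 higher and 8 lower under total-count scaling. Gnl3, which encodes the nucleolar GTPase nucleostemin, fell from 171 ± 4.02 to 120.2 ± 5.39 (log2 fold change -0.50, SE 0.14, adjusted p = 0.000561), and Nop16 was also lower. Wdr12 shares 61 exonic bases with the opposite-strand gene Carf and Gnl3 shares 8 with Glt8d1, and reads there could not be told apart.

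Of the RNA polymerase I genes, 1 was called higher and 2 lower in the main scaling. Polr1b (chr2:128926731-128952330, plus strand, mm9) had counts of 147, 144 and 149 without LPS and 66.5, 58.9 and 62.6 with LPS, with no overlap between the groups. It was 2.36-fold lower with LPS (log2 fold change -1.24, SE 0.17, adjusted p = 8.83e-13). In 7 libraries its expected count was not whole, so part of its reads was divided with other genes. Polr1a, the catalytic subunit, was also called lower, at 569.8 ± 44.1 without LPS and 448 ± 49.6 with it, and all 5 of the lower calls held under all 4 scalings. With LPS the median of all genes was highest in the main scaling, so the other scalings favoured lower calls. Rrn3, the initiation factor that makes the polymerase competent to bind ribosomal DNA, was called higher, at 340.1 ± 25.1 and 769 ± 94.2, a call that was lost under total-count scaling. Ubtf, which encodes the ribosomal DNA-binding factor UBF, was at 1451 ± 27.3 and 1414 ± 165 and was not called, but was called lower under total-count and TPM scaling.

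Among the snoRNP proteins, Rrp9, the protein specific to the U3 box C/D particle, was higher with LPS at counts of 334, 286 and 254, against 112, 120.1 and 111 in unstimulated cells, and was called higher under all 4 scalings. Nop58, a core box C/D protein, was also called higher at 435 ± 59.5 against 201 ± 32.5, a call that was lost under total-count and TPM scaling. Of the 5 box H/ACA proteins 4 were called higher, and Nhp2 was at 509 ± 72.7 against 257 ± 12.2, a call that was lost under total-count scaling, whereas Gar1, Nop10 and Nolc1 changed sign in at least 1 scaling. Fbl had a log2 fold change of 0.39 (SE 0.097, adjusted p = 0.00014) in the main scaling, but was lower under total-count scaling, at -0.54, and under TPM scaling, at -0.38. Of the nucleolar proteins, the RNA helicase Ddx21 went from 1080.0, 1015 and 1053 to 3045, 2983 and 2868 and was called higher under all 4 scalings. Ncl was at 3533, 3753 and 3866 and 4502, 4140.0 and 4576, a log2 fold change of 0.24 (SE 0.055, adjusted p = 2.25e-05) that turned to -0.68 under total-count scaling. Npm1 was not called (log2 fold change 0.19, SE 0.11, adjusted p = 0.104). The summed level of 15 cell cycle markers lay at 503 to 604 TPM in unstimulated cells and at 382 to 492 TPM with LPS, and their part in these changes was not tested.

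**Figure D2:**
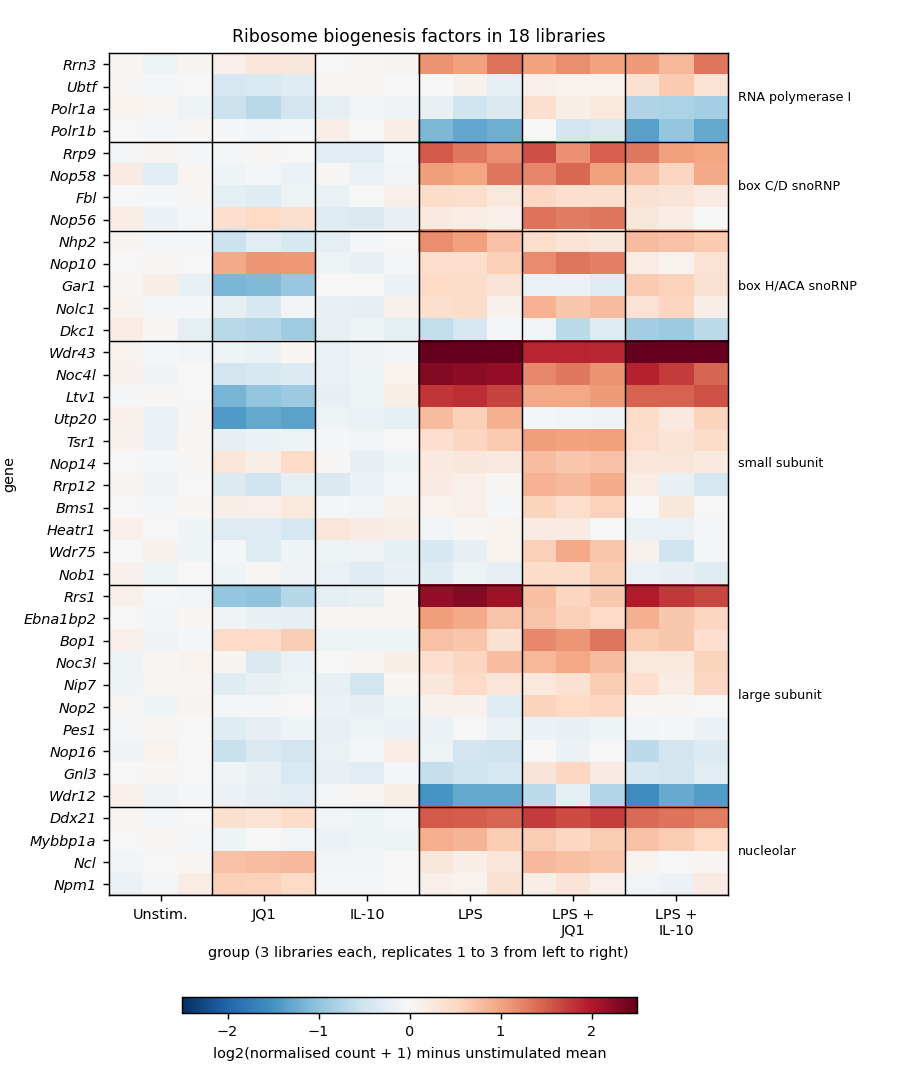
Each cell is the log2(normalised count + 1) of 1 factor (rows, by role) in 1 of the 18 libraries (columns) minus the mean of the 3 unstimulated libraries, with red above and blue below it. Wdr43, Noc4l, Ltv1 and Rrs1 are the deepest red in LPS and paler in LPS with JQ1, and Wdr12 and Polr1b are blue in LPS and in LPS with IL-10.

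The promoters of 4 members are shown to set an extreme value of 3 comparisons, and a fall, beside their sequences. They are Wdr43 with the largest rise with LPS, Ltv1 with the largest rise with LPS in JQ1-treated cells, Utp20 with the largest fall with JQ1 alone, and Polr1b with the larger fall of the RNA polymerase I subunits called lower with LPS. Each window runs from 250 bases before to 50 bases after a RefSeq start site in build GRCm38.p6, is written 5′ to 3′ on the gene's strand, and shows in capitals the E-box CACGTG, the letters bound by Myc with its partner Max.
Wdr43 (chr17:71615965-71616264, plus strand): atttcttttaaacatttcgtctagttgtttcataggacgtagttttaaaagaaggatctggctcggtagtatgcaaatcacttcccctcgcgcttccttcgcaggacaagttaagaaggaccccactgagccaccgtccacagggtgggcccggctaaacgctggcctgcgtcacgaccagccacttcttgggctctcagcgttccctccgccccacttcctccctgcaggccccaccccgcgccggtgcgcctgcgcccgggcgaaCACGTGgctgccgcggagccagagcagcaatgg
Ltv1 (chr10:13193088-13193387, minus strand): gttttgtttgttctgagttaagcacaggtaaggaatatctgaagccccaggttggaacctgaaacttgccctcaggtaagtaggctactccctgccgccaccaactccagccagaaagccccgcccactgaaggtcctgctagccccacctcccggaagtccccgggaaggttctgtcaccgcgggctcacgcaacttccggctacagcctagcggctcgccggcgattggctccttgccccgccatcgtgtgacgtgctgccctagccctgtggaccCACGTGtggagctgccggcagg
Utp20 (chr10:88826765-88827064, minus strand): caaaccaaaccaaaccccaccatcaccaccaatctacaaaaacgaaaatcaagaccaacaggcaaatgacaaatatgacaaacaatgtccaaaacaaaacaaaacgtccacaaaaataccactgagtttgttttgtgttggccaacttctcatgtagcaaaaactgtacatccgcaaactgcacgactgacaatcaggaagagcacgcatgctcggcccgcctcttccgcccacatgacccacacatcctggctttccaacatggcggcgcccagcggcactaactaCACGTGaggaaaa
Polr1b (chr2:129100746-129101045, plus strand): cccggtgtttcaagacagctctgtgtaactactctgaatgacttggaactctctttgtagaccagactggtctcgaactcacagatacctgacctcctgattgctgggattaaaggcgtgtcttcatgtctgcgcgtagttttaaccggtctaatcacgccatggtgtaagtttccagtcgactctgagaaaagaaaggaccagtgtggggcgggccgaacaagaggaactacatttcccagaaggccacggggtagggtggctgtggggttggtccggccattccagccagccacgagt
The E-box began 17 bases after the start site in Wdr43, 28 bases after it in Ltv1 and 37 bases after it in Utp20. The Polr1b window held none, which says only that these letters are not in that window. RefSeq promoter windows were matched for 33 members, with 40 windows in all. The E-box was in 8 of the 40 windows, or 20.0%, against 7.15% of all 32851 windows and 9.93% of the 11985 windows of genes that passed the count filter. It was found in Ltv1, Mybbp1a, Nop2, Pes1, Rrn3, Tsr1, Utp20 and Wdr43. The ETS letters CCGGAAGT were in 9 windows, or 22.5%, against 3.89% of all windows and 8.09% of those of expressed genes. The NRF1 letters GCGCATGC were in 5.00% of the windows, against 2.71% of all and 5.26% of those of expressed genes. The NFY letters CCAAT were in 27.5%, against 37.4% and 37.7%, and the YY1 letters AAGATGGC in 0 of 40, against 2.75% and 4.55%. Both strands were searched, and overlaps between motifs were not removed. The 8 members with an E-box had a median log2 fold change with LPS of 0.77 and the 25 without had 0.24. With JQ1 alone these medians were -0.13 and -0.17, and with JQ1 during LPS they were -0.16 and 0.32, in the opposite order. No test was made of these differences.

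JQ1 alone lowered more members than it raised. To determine the effect of BET inhibition without LPS, JQ1-treated and unstimulated cells were compared. Of the 38 members, 14 were lower (36.8%) and 7 were higher (18.4%), whereas 23.7% of the 13686 genes tested were lower and 21.9% were higher, or 45.7% in either direction. The median log2 fold change of the members was -0.18, against 0.00 for all genes. Under total-count scaling 22 members were lower and 6 higher, the median of all genes was -0.17, and higher calls went from 48.0% to 26.8% of all calls over all genes. All 14 lower calls and 6 of the 7 higher calls, all but Nop14, held under all 4 scalings, and the 14 became 6 without mouse 1 and 9 without mouse 2. As the median of all genes was highest in the main scaling, the other scalings favoured lower calls. Cell cycle markers summed to 255 to 295 TPM with JQ1 against 503 to 604 TPM without it, and their part in these changes was not tested.

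Utp20, a scaffold protein of the small subunit processome (chr10:88209352-88289559, minus strand, mm9), had counts of 524, 425 and 489 in unstimulated cells and 178, 196 and 189 with JQ1. It was 2.58-fold lower, with the same direction in 3 of 3 mice (log2 fold change -1.37, SE 0.11, adjusted p = 2.15e-32). Ltv1 was 2.04-fold lower, with counts of 77.8, 88.7 and 93.4 against 171, 181 and 178 (log2 fold change -1.03, SE 0.13, adjusted p = 2.2e-13). Rrs1 had counts of 135, 130.1 and 160.3 with JQ1 against 285, 254 and 251 and was 1.86-fold lower (log2 fold change -0.90, SE 0.13, adjusted p = 1.37e-11). The other small subunit factors called lower were Noc4l, Rrp12 and Heatr1. In RNA polymerase I transcription, Polr1a (386 ± 31.6 against 569.8 ± 44.1) and Ubtf (1127 ± 46.4 against 1451 ± 27.3) were lower, whereas Polr1b was at 142 ± 1.90 against 147 ± 2.60 and was not called.

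The box H/ACA particle, built from Dkc1, Gar1, Nhp2 and Nop10, was uneven under JQ1. Nop10 had counts of 196, 201 and 197 without and 383, 425 and 420.4 with JQ1, and rose 2.07-fold (log2 fold change 1.05, SE 0.10, adjusted p = 1.44e-23). The other core members were called lower. Gar1 went from 66.3, 71.0 and 57.0 to 28.5, 29.6 and 33.0, Dkc1 from 131, 117 and 98.5 to 70.9, 69.0 and 61.4, and Nhp2 from 271, 249 and 251 to 177, 214 and 195, with no overlap between the groups for any of these genes. Of the 4 nucleolar proteins, 3 were called higher. Ncl had counts of 6138, 6329.6 and 6474 with JQ1 against 3533, 3753 and 3866 without, and rose 1.70-fold (log2 fold change 0.76, SE 0.055, adjusted p = 1.22e-42). Npm1 had 2945, 2908 and 2744 against 1767, 1893 and 2212 and rose 1.46-fold (log2 fold change 0.55, SE 0.11, adjusted p = 1.75e-06), and Ddx21, the box C/D core protein Nop56 and Bop1 were also called higher. The remaining nucleolar protein, Mybbp1a, was at 1598 ± 64.2 against 1668 ± 54.2 and was not called, but was called lower under total-count and TPM scaling.

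To determine how BET inhibition altered the pathway during stimulation, cells given LPS and JQ1 were compared with cells given LPS. Here 18 members were higher (47.4%) and 9 were lower (23.7%), against 24.4% and 32.9% of the 14326 genes tested, or 57.3% in either direction. The median log2 fold change of the members was 0.17, and that of all genes was -0.10. Under total-count scaling 28 were higher and 6 lower, the median of all genes was 0.28, and higher calls went from 42.5% to 64.9% of all calls. All 18 higher calls held under all 4 scalings, as did 6 of the 9 lower calls, namely Ltv1, Nhp2, Noc4l, Rrs1, Utp20 and Wdr43, whereas Ebna1bp2 and Mybbp1a changed sign in at least 1 scaling. The median of all genes was lowest in the main scaling, so the other scalings favoured higher calls and could hardly remove one. Cell cycle markers summed to 288 to 363 TPM with LPS and JQ1 and to 382 to 492 TPM with LPS, and their part was not tested.

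The factors with the largest rises under LPS were lower when JQ1 had been given. Both comparisons use the same LPS libraries, so picking genes by their change with LPS favours an opposite change here. Rrs1 had counts of 442, 383 and 422 with LPS and JQ1, against 1217, 1289 and 1150.4 with LPS, and was 2.93-fold lower (log2 fold change -1.55, SE 0.11, adjusted p = 3e-46). Noc4l had 379.9, 409.7 and 359 against 812, 775 and 756 and was 2.04-fold lower (log2 fold change -1.03, SE 0.11, adjusted p = 2.56e-18). Wdr43 had 1429, 1439 and 1408 against 2692, 2807 and 2769.8 and was 1.93-fold lower (log2 fold change -0.95, SE 0.068, adjusted p = 7.89e-43). In normalised counts, the libraries of LPS with JQ1 lay between the unstimulated and the LPS libraries without overlap for these 3 genes. On the TPM scale Rrs1 overlapped with unstimulated cells, at 22.5, 21.3 and 22.4 TPM against 21.4, 17.99 and 19.1 TPM.

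Of the 5 members lower with LPS, Polr1a, Polr1b, Wdr12 and Gnl3 were higher with LPS and JQ1 than with LPS, and Nop16 was not called. The LPS libraries that picked these 5 members also serve in this comparison, which favours a return. Polr1b had counts of 147, 105 and 114 with LPS and JQ1, against 66.5, 58.9 and 62.6 with LPS and 147, 144 and 149 in unstimulated cells. It rose 1.96-fold over LPS (log2 fold change 0.97, SE 0.17, adjusted p = 9.94e-08). Wdr12 was at 92.8, 125 and 87.4 against 52.3, 60.0 and 60.2 and Gnl3 at 214, 245 and 198 against 115, 121 and 125, both called higher. The largest rise over LPS was that of Nop56, which had 1113, 1069.9 and 1102 with LPS and JQ1, 510.4, 495 and 475 with LPS and 496, 394 and 417 in unstimulated cells, and rose 2.22-fold over LPS (log2 fold change 1.15, SE 0.093, adjusted p = 5.45e-34). It shares 5 exonic bases with the opposite-strand gene Idh3b and hosts the small nucleolar RNA gene Snord57. Wdr75, a partner of Wdr43 in the same early assembly complex, had 213, 273 and 229 against 106, 121 and 149 and rose 1.90-fold (log2 fold change 0.93, SE 0.16, adjusted p = 2.54e-08), so the partners moved in opposite directions with JQ1 during LPS. Ncl rose 1.43-fold (log2 fold change 0.51, SE 0.055, adjusted p = 5.38e-20). Fbl was not called (log2 fold change 0.06, SE 0.096, adjusted p = 0.65) in this scaling but was called higher under total-count scaling, at 0.43, and TPM scaling, at 0.35. Npm1 was at 2243 ± 175 with LPS and JQ1 and 2242 ± 262 with LPS and was not called (log2 fold change 0.00, SE 0.11, adjusted p = 1).

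**Figure D3:**
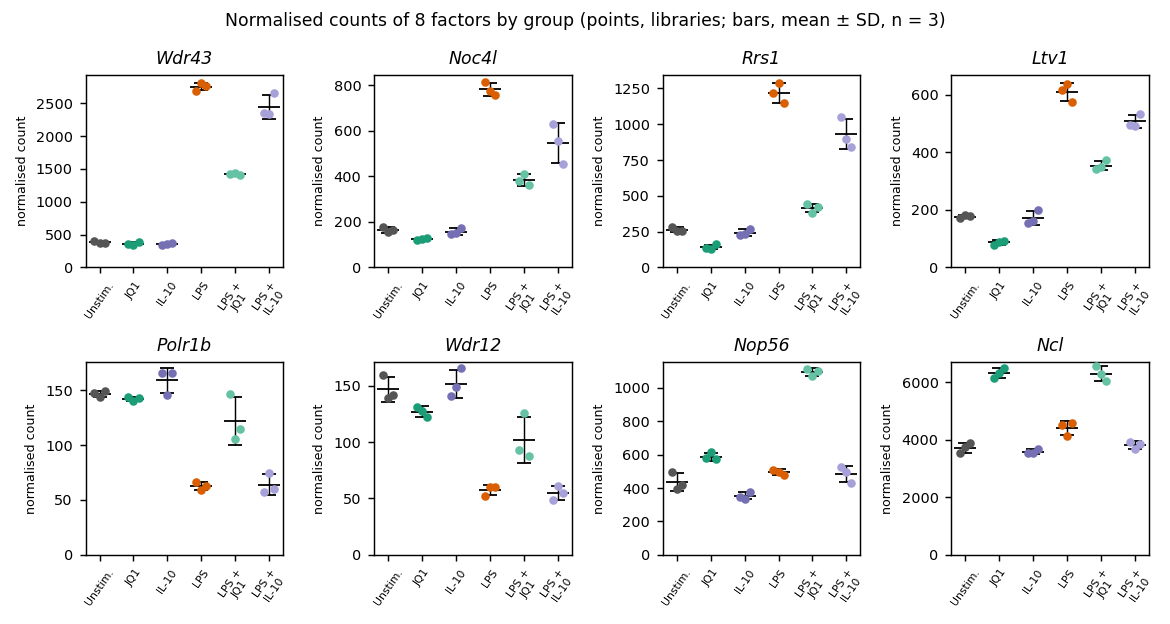
Normalised counts (vertical axis, from 0) of 8 factors in the 6 groups, with points for the 3 libraries and bars for mean ± SD. Wdr43, Noc4l, Rrs1 and Ltv1 are highest with LPS and intermediate with LPS and JQ1, Polr1b and Wdr12 are lowest with LPS or with LPS and IL-10, Nop56 is highest with LPS and JQ1, and Ncl is high in both JQ1 groups.

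The effect of JQ1 differed with and without LPS for many members. In the test of that difference, the LPS by JQ1 interaction, 17 members were higher (44.7%) and 6 were lower (15.8%), against 17.7% and 23.8% of the 12727 genes tested, or 41.5% in either direction. Under total-count scaling 31 were higher and 1 lower, and the median of all genes went from -0.05 to 0.51. All 17 higher calls held under all 4 scalings, but only Wdr43 of the 6 lower ones did. Here too the main scaling had the lowest median of all genes, so the other scalings favoured higher calls. Without mouse 1 the counts were 9 higher and 3 lower. Polr1a was lower with JQ1 alone and higher with JQ1 during LPS, at counts of 754, 629.8 and 684 with both agents against 499, 400.1 and 444 with LPS, and its interaction was 1.18 (SE 0.15, adjusted p = 3.39e-14). Rrp12, a small subunit maturation and export factor, followed the same course, at 124, 111 and 133 with JQ1 against 164, 149 and 159 and 288, 276 and 302 with both against 181, 171 and 159.6, with an interaction of 1.13 (SE 0.21, adjusted p = 3.95e-07). For Gnl3 the interaction was 1.08 (SE 0.19, adjusted p = 8.79e-08). In the opposite direction it was -0.88 (SE 0.11, adjusted p = 1.94e-14) for Wdr43, which JQ1 alone left at 355, 344 and 393, -0.66 (SE 0.17, adjusted p = 0.000341) for Rrs1 and -0.61 (SE 0.18, adjusted p = 0.0025) for Noc4l. The comparisons of JQ1 without and with LPS use no library in common. They shared 6 higher members, which is 85.7% of the 7 without LPS and 33.3% of the 18 with LPS. They also shared 6 lower members, 42.9% of 14 and 66.7% of 9, and Polr1a and Rrp12 were lower in the former and higher in the latter.

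**Figure D4:**
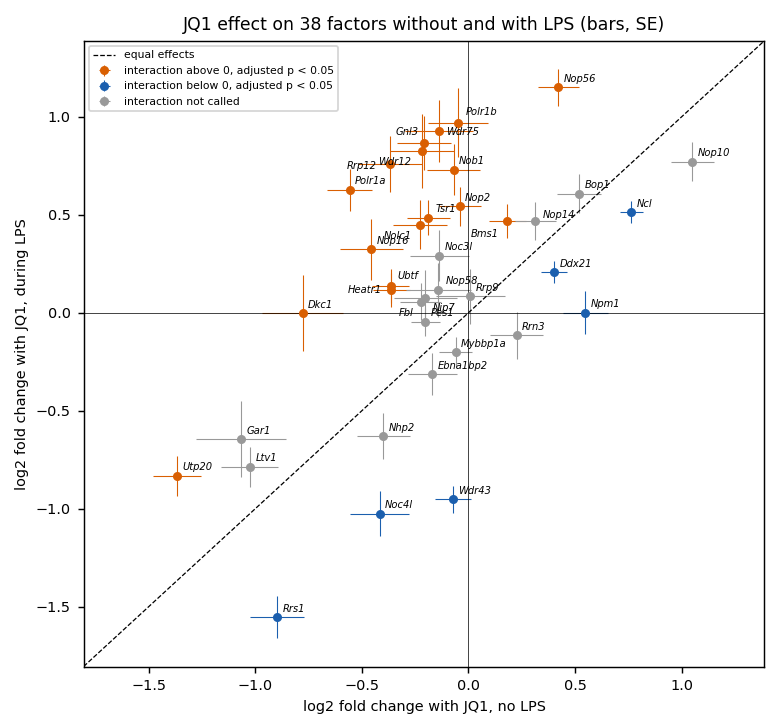
Log2 fold change with JQ1 during LPS (vertical) against that without LPS (horizontal) for the 38 factors, with SE bars and colours for the interaction test. Nop56 is highest on the vertical axis at 1.15, Rrs1 is lowest at -1.55, and Polr1a lies left of 0 and above 0.

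More members were called higher with LPS in JQ1-treated cells than in cells without pretreatment. When LPS with JQ1 was compared with JQ1 alone, 33 members were higher (86.8%) and 1 was lower, against 27.6% and 31% of the 13686 genes tested, or 58.6% in either direction. Under total-count scaling 22 were higher and 5 lower, the median of all genes was -0.45, and higher calls went from 47.1% to 25.6% of all calls. The members' median log2 fold change was 0.72 and that of all genes was -0.07. Of the 33 higher calls, 22 held under all 4 scalings, and Bms1 and Nop10 changed sign in at least 1. All 11 small subunit factors, all 4 box C/D and all 5 box H/ACA proteins were among the 33 in the main scaling. Ltv1 had counts of 77.8, 88.7 and 93.4 with JQ1 and 342, 348 and 372 with both, and rose 4.09-fold (log2 fold change 2.03, SE 0.13, adjusted p = 9.59e-56). Wdr43 rose 3.91-fold (log2 fold change 1.97, SE 0.078, adjusted p = 3.72e-138) and Noc4l rose 3.09-fold (log2 fold change 1.63, SE 0.13, adjusted p = 2.7e-34). Npm1 was the member that fell, with counts of 2146, 2445 and 2138 with both agents against 2945, 2908 and 2744 with JQ1 (log2 fold change -0.35, SE 0.11, adjusted p = 0.00214). The comparisons of LPS without and with JQ1 use no library in common. Of the 22 members higher with LPS alone, 21 (95.5%) were also among the 33 here (63.6%), with Ncl as the exception. As 86.8% of all 38 members were higher here, most of any 22 members would be shared. Of the 5 members lower with LPS alone, Nop16, Polr1a and Gnl3 were higher in JQ1-treated cells in the main scaling. Polr1b and Wdr12 were not called there, but were called lower under total-count and TPM scaling.

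**Figure D5:**
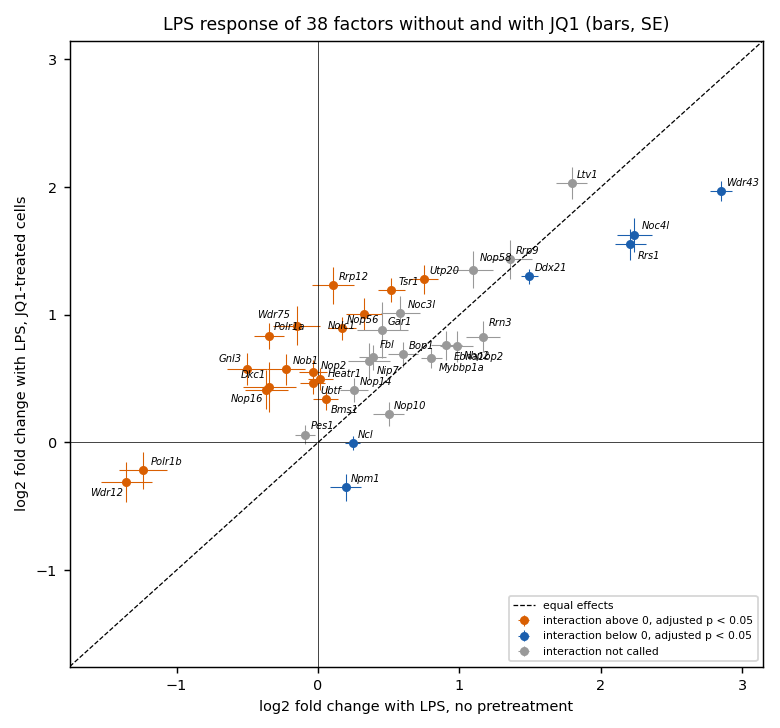
Log2 fold change with LPS in JQ1-treated cells (vertical) against that in cells without pretreatment (horizontal) for the 38 factors, with SE bars and colours for the interaction test. The line marks equal effects, 27 of the 38 points lie above it, and Wdr43 at 2.85 and 1.97, Noc4l at 2.24 and 1.63 and Rrs1 lie below it.

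IL-10 alone moved few members. When IL-10-treated and unstimulated cells were compared, DESeq2 called 0 members higher and 1 lower, against 1.8% and 1.01% of the 12727 genes tested, or 2.81% in either direction. At an unadjusted p under 0.05 the counts were 1 higher and 2 lower, and edgeR and limma called none. The lower member was Nop56, with counts of 349, 335 and 379 against 496, 394 and 417 (log2 fold change -0.31, SE 0.095, adjusted p = 0.0392), a call that was lost in edgeR, in limma, without independent filtering and when only the groups compared were fitted.

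During LPS stimulation, IL-10 left most members near the LPS level. In cells given LPS and IL-10 against LPS, 1 member was higher and 7 were lower (2.63% and 18.4%), against 8.38% and 8.81% of the 11448 genes tested, or 17.2% in either direction. Under total-count scaling 1 was higher and 3 were lower, and higher calls went from 48.7% to 71.1% of all calls. The members' median log2 fold change was -0.13 and that of all genes was -0.02. Noc4l had counts of 628, 555 and 453 against 812, 775 and 756 with LPS (log2 fold change -0.53, SE 0.11, adjusted p = 5.18e-05). Polr1a had 337, 329.9 and 315 against 499, 400.1 and 444 (log2 fold change -0.45, SE 0.11, adjusted p = 0.000757), and these were the lower calls that held under all 4 scalings. Rrs1 had 1049, 898 and 844 against 1217, 1289 and 1150.4 (log2 fold change -0.39, SE 0.10, adjusted p = 0.00146), with an adjusted p of 0.0625 on the TPM scale. The count of 7 became 4 without the library of replicate 2 of LPS with IL-10, and 2 without any 1 of the mice. Ubtf was the higher member, with 1884, 2273 and 1867 against 1444, 1561 and 1236 (log2 fold change 0.50, SE 0.086, adjusted p = 1.76e-07), and its libraries lay above all others of the series in normalised counts. On the TPM scale they ran from 34.0 to 44.7 TPM, above LPS at 24.3 to 28.1 TPM but below IL-10 alone at 46.0 to 48.7 TPM. In the test of whether IL-10 acted differently with and without LPS, Ubtf was higher at 0.47 (SE 0.12, adjusted p = 0.00259) and Heatr1, a small subunit processome protein, was lower at -0.37 (SE 0.12, adjusted p = 0.0356), against 4% and 3.44% of the 10808 genes tested, or 7.44% in either direction. The Heatr1 call was lost under TMM scaling, at an adjusted p of 0.0505.

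JQ1 and IL-10 were also compared directly during LPS stimulation. With JQ1, 22 members were higher and 8 were lower than with IL-10 (57.9% and 21.1%), against 23.8% and 31.6% of the 14326 genes tested, or 55.3% in either direction. Under total-count scaling 28 were higher and 4 lower, and higher calls went from 42.9% to 61.2% of all calls. In the main scaling the members' median log2 fold change was 0.43, and all 22 higher calls held under all 4 scalings. Of the 8 lower calls, 4 held, namely Gar1, Ltv1, Rrs1 and Wdr43. The main scaling had the lowest median of all genes, so the other scalings favoured higher calls. Nop56 was 2.28-fold higher with JQ1 (log2 fold change 1.19, SE 0.093, adjusted p = 6.45e-36), with counts of 1113, 1069.9 and 1102 against 525, 494 and 430.1. Polr1a was 2.11-fold higher (log2 fold change 1.08, SE 0.11, adjusted p = 4.3e-22) and Nop10 was 2.05-fold higher (log2 fold change 1.03, SE 0.10, adjusted p = 1.65e-22). Rrs1 was 2.23-fold lower (log2 fold change -1.16, SE 0.11, adjusted p = 9.47e-26), Wdr43 was 1.72-fold lower (log2 fold change -0.78, SE 0.069, adjusted p = 3.69e-29) and Ltv1 was 1.44-fold lower (log2 fold change -0.52, SE 0.10, adjusted p = 1.25e-06).

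The other genes of the pathway were followed in a list of 124, all of which were found and tested. With LPS, 67 were higher (54.0%) and 17 were lower (13.7%), against 31.6% and 32.9% of all genes tested. Their median log2 fold change was 0.28 and turned to -0.65 under total-count scaling, with 14 higher and 91 lower. Sbds, which releases an anti-association factor from the new large subunit, had counts of 596, 690.0 and 599.9 without LPS and 8743, 8159 and 7541 with LPS, a log2 fold change of 3.71. Rcl1, a protein of the small subunit processome, had a log2 fold change of 2.67 (SE 0.12, adjusted p = 2.5e-102). The largest falls were -1.93 (SE 0.20, adjusted p = 4.94e-22) for Rrp1b and -1.86 (SE 0.15, adjusted p = 1.36e-36) for Imp3. With JQ1 during LPS, 44 of the 124 were higher (35.5%) and 34 were lower (27.4%), against 24.4% and 32.9% of all genes tested. Under total-count scaling 83 were higher and 16 were lower. The extremes were in part the same genes as with LPS, a comparison that uses the same LPS libraries. Sbds had counts of 2557, 2374 and 2640.4 with both agents and a log2 fold change of -1.69 (SE 0.086, adjusted p = 1.87e-83), and Tcof1, a cofactor of RNA polymerase I transcription, had one of -1.08 (SE 0.14, adjusted p = 2.31e-14). Rrp1b had counts of 145, 136 and 149 with both agents, 43.8, 40.3 and 29.5 with LPS and 157, 127 and 142 in unstimulated cells, with a log2 fold change over LPS of 1.92 (SE 0.20, adjusted p = 3.77e-21). Cd3eap, an RNA polymerase I subunit, had one of 1.91 (SE 0.19, adjusted p = 7.04e-22), with counts of 184, 215 and 189 in unstimulated cells, 48.1, 63.1 and 52.8 with LPS and 193, 198 and 233 with both.

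Myc and the ribosomal RNA precursor Rn45s were measured beside the members. Myc had counts of 349, 233 and 279.5 in unstimulated cells and 84.8, 70.0 and 93.4 with JQ1, a log2 fold change of -1.81 (SE 0.19, adjusted p = 5.59e-20). It had 467, 422 and 367 with LPS, a log2 fold change of 0.53 (SE 0.17, adjusted p = 0.00442), and 353, 269 and 362 with LPS and JQ1. Relative to LPS, Myc with LPS and JQ1 had a log2 fold change of -0.35 (SE 0.17, adjusted p = 0.0732) that was called with the replicate block, at an adjusted p of 0.0216, and its rise with LPS turned to -0.40 under total-count scaling. Rn45s took 10.0% of the counts in unstimulated cells, 11.4% with JQ1, 6.44% with LPS and 7.55% with LPS and JQ1 (means, n = 3). Its log2 fold change with LPS was 0.29 (SE 0.12, adjusted p = 0.0333) under median-of-ratios scaling, opposite in sign to the change of its share, and -0.64 under total-count scaling. The libraries were depleted of ribosomal RNA, so these shares are what depletion left and were not read as precursor synthesis.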

How the data were processed

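Stranded, ribosomal RNA-depleted libraries were prepared from BMDMs of Il10-/- mice (6 groups, 3 libraries each) and sequenced as paired 50-base reads. According to the study's methods, reads were extracted with TagDust, and per the submitters' processing notes they were aligned to mm9 with STAR and quantified with RSEM 1.2.31. The values deposited by the authors were expected counts per gene (RSEM estimates that divide shared reads among genes), TPM (length-scaled abundance) and FPKM, which was not used here. Effective gene lengths deposited by the authors served in an offset. RSEM's default settings ignore strand, so the 12 members whose exons overlap those of an annotated opposite-strand gene carry uncertain counts. The partner is listed in the files for 8 of them, with the longest overlap, 1240 bases, between Tsr1 and Srr, and not under its annotated name for Nop14 (144 bases), Polr1a (185), Bop1 (43) and Pes1 (138). Expected counts were whole in all libraries for 35 of 38 members and were rounded.

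DESeq2 1.42.0 in R 4.3.3 was fitted once to the 18 libraries, with a term for group alone. Size factors were medians of ratios, and the Wald test was used with independent filtering, and p-values were adjusted by the Benjamini-Hochberg method over all genes. Interactions were contrasts of the same fit. edgeR 4.0.16, limma 3.58.1 on log2(TPM + 1) and on log2(TPM + 0.1), other scalings, a gene length offset, other filters, the sequencing lane, the replicate block, fits of only the groups compared, and leaving out each library or mouse were alternatives. The count filter was 10 counts in at least 3 libraries. Scripts were tested on simulated data. Replicate pairs differed by more than sampling noise (chi-square per degree of freedom 3.98 to 28.4). Pairs with replicate 3 of LPS gave 24.2 and 28.4, and those with replicate 3 of LPS with IL-10 gave 28.0 and 26.9. All other pairs were at most 10.5. The labels name no molecular identifiers, so PCR copies of a molecule could not be removed by them.

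The labels tie each replicate number to matched cultures of 3 mice, so the numbers pair the libraries. As a check, the mean correlation of same-numbered deviations from the group means was between -0.03 and 0.24 over the comparisons. Per the file names, mouse 1 was sequenced on lane 7, mouse 3 on lane 8, and mouse 2 on lane 7 for cells without LPS but lane 8 for cells with LPS. Members, lists and motifs were chosen with earlier results of these data known. Fold changes were given for up to 3 called members with the largest rise and fall per comparison (mean normalised count of at least 100, same direction in 3 of 3 mice), for Fbl, Ncl, Npm1 and Polr1b with LPS and with JQ1 during LPS, for Myc and Rn45s, and for 2 other pathway genes per direction. Gene positions come from the GENCODE vM1 annotation of mm9, and promoter sequences from RefSeq (GRCm38.p6).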

Additional observations from a re-analysis of the deposited data

Results flagged for a closer look

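The effect of JQ1 differed with and without LPS, by the interaction term of the DESeq2 fit, for 17 members in the higher and 6 in the lower direction. That is 44.7% and 15.8% of the members, against 17.7% and 23.8% of the 12727 genes tested, so the lower share was below that of all genes. The largest higher values were 1.18 for Polr1a, 1.13 for Rrp12 and 1.08 for Gnl3, each with the same direction in 3 of 3 mice. The lowest were -0.88 for Wdr43, -0.66 for Rrs1 and -0.61 for Noc4l. The values of Rrs1 and Noc4l shrank to -0.10 and -0.05 under total-count scaling and were then not called, whereas that of Wdr43 was called under all 4 scalings.

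The effect of IL-10 differed with and without LPS for 1 member in the higher direction, Ubtf at 0.47. In the lower direction it differed for 1, Heatr1 at -0.37. That is 2.63% of the members each way, against 4% higher and 3.44% lower of the 10808 genes tested. The Heatr1 call was lost under TMM and total-count scaling, in edgeR and in limma.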

How the results depend on the processing

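Scaling was the choice that moved the members most. With LPS, 22 higher and 5 lower members became 6 and 26 when scaled by total counts, 8 and 23 with limma on log2(TPM + 1) or log2(TPM + 0.1), and 8 lower with TMM or edgeR. The members' median of 0.34 turned to -0.59 under total-count scaling and to -0.41 and -0.44 on the 2 TPM scales, where the test and the pseudocount changed together with the scaling. In the same order, the values with LPS turned to -0.54, -0.38 and -0.39 for Fbl, -0.68, -0.52 and -0.53 for Ncl, -0.73, -0.56 and -0.56 for Npm1, -0.40, -0.21 and -0.22 for Myc, and -0.64, -0.50 and -0.50 for Rn45s. Under total-count scaling and on the 2 TPM scales, the 14 members lower with JQ1 became 22, 24 and 23, the 7 lower with IL-10 during LPS became 3, 2 and 2 (3 with only the groups compared), the 1 lower with LPS in JQ1-treated cells became 5, the 8 lower in JQ1 against IL-10 became 4, 5 and 5, and the LPS by JQ1 interaction went from 17 higher and 6 lower to 31, 30 and 30 higher and 1 lower. The 18 higher with JQ1 during LPS became 28 under total-count scaling. For JQ1 during LPS, Rn45s turned to 0.23 under total-count scaling and 0.17 on both TPM scales, Myc to 0.024 under total-count scaling and Npm1 to -0.016 with the gene length offset, and the median of the LPS by IL-10 interaction turned to 0.031 under total-count scaling. The single lower call with IL-10 became 0 without filtering, with only the groups compared, in edgeR and in limma, and that of the LPS by IL-10 interaction became 0 in these and also under TMM and total-count scaling. Beyond the scalings the cause of these changes was not tested.

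Among the named genes, the replicate block changed only the call of Myc with JQ1 during LPS, which was then called at -0.36. The lane and the prefiltered genes changed no call of a named gene. Counts of members called were flagged only for large shifts, and these fits had none. Over all genes, 4728 higher calls with LPS became 4757 with the block, 4709 with the lane and 4628 with prefiltered genes.

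Leaving out 1 mouse or 1 library at a time, the counts ran for LPS from 18 to 22 higher and 3 to 5 lower, for JQ1 from 6 to 8 and 6 to 14, for IL-10 from 0 to 1 and 0 to 1, for JQ1 during LPS from 16 to 18 and 6 to 9, for IL-10 during LPS 1 and from 2 to 10, for LPS in JQ1-treated cells from 30 to 33 and 0 to 2, for JQ1 against IL-10 from 17 to 23 and 7 to 8, for the LPS by JQ1 interaction from 9 to 18 and 3 to 6, and for the LPS by IL-10 interaction from 0 to 1 and 0 to 1. The lower count for JQ1 was 6 without mouse 1 and 9 without mouse 2, and the LPS by JQ1 interaction had 9 higher without mouse 1 and 3 lower without mouse 1 or mouse 2. The lower count for LPS was 3 without mouse 2, that for IL-10 during LPS was 2 without any 1 mouse and 4 without LPS_IL10 replicate 2, and that for LPS in JQ1-treated cells was 0 without mouse 1 and 2 without LPS_JQ1 replicate 1 or 2. The single calls with IL-10 and of the LPS by IL-10 interaction were each lost without any 1 mouse for the lower direction, and without mouse 1 or mouse 3 for Ubtf, and 1 higher call with IL-10 appeared without Unstimulated replicate 1. Npm1 with JQ1 during LPS ran from -0.11 to 0.14.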

Other observations

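The cytosolic ribosomal proteins, which the members assemble into subunits, were measured as a list of 87 genes, of which 83 passed the count filter. With LPS, 51 were higher (61.4%) and 0 were lower, against 31.6% and 32.9% of all genes tested, with a median log2 fold change of 0.31. Under total-count scaling 78 were lower, with a median of -0.62. With JQ1 alone, 57 were higher and 1 was lower, against 21.9% and 23.7% of all genes tested. These counts became 18 higher and 3 lower under total-count scaling, where 1670 of the 13687 genes tested were higher and 4568 lower. In JQ1-treated cells, 10 were higher with LPS and 1 was lower in the main scaling, against 27.6% and 31% of all genes tested, and 1 was higher and 66 were lower under total-count scaling. The LPS by JQ1 interaction was lower for 27 ribosomal proteins (32.5%) under median-of-ratios scaling, against 23.8% of all genes tested. Under total-count scaling it was higher for 53, so its direction changed with the scaling.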
